A study of Mus musculus with 10 samples.

Results

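The genes described here are 34 genes of cholesterol synthesis, uptake and export, chosen by name from the 56748 genes of a liver RNA-seq count table. They comprise 19 enzymes on the route from acetyl-CoA to cholesterol, 4 genes of the SREBP2 transcription factor and its regulators, 4 genes of sterol uptake and transport inside the cell, and 7 genes of the liver X receptors (LXR), sterol export and sterol esters. Mouse livers of 2 groups were compared, 5 libraries from Acss2-floxed mice (genotype ACSS2-flox, here flox) and 5 from mice labelled ACSS2-HKO (here HKO), which the series describes as a knockout of Acss2 restricted to liver cells. Both groups had received a high-fat, high-fructose diet for 4 months, and the study concerns metabolic dysfunction-associated steatohepatitis. The sources used here give neither the Cre driver nor the exons deleted, and neither the sex nor the age of the mice. The labels also leave out whether each library came from a separate animal, so p-values measure the spread between these libraries.

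Cholesterol is built in the cytosol and endoplasmic reticulum from acetyl-CoA, which passes through mevalonate, isoprenoid diphosphates, squalene and lanosterol. SREBP2, escorted by SCAP and held back by the INSIG proteins when sterols are plentiful, switches on most genes of this route, usually together with the promoter-binding factors NF-Y and Sp1. The liver X receptors respond to oxidised sterols and turn on export genes, and the liver is the organ that secretes cholesterol into lipoproteins and bile. ACSS2, the enzyme missing by design in HKO, makes acetyl-CoA from acetate in the cytosol and nucleus.

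All 34 genes passed the filter on low counts, as did 14068 genes in all. Total counts ran from 15413648 to 19275358 per library, so that 3 counts were worth 0.151 to 0.198 CPM (counts scaled to library size with TMM factors, the unit of all levels below). The 12 hepatocyte markers were read in every library and summed to between 94259 and 154623 CPM. In 11 of the 12 the fitted level was higher in HKO than in flox, though 0 passed in edgeR. The 14 macrophage markers all fell, from summed levels of 347 to 850 CPM in flox to 130 to 272 CPM in HKO, and none of them was at 0 in any library. Of other cell types, 1 of 8 endothelial and 1 of 4 tested lymphocyte markers fell, where 3.07% of all tested genes did. In edgeR 0 of 8 stellate, 0 of 5 cholangiocyte and 0 of 3 tested neutrophil markers passed. At an unadjusted edgeR p under 0.05, 10.8% of all tested genes were lower and 6.07% were higher in HKO. Lower by that measure were 4 of 8 stellate, 2 of 8 endothelial, 2 of 3 neutrophil and 1 of 4 lymphocyte markers. No marker of these types was higher. Of the 12 hepatocyte markers 1 was lower and 2 were higher, and 0 of 5 cholangiocyte markers were lower or higher. The fitted level was lower in HKO for 8 of 8 endothelial markers. Flox replicate 5 had the highest stellate and cholangiocyte sums, 286 and 162 CPM, and the lowest hepatocyte sum. In whole tissue, fewer cells of a type and less RNA per cell cannot be told apart. The targeted gene, Acss2 (ENSMUSG00000027605), read 73.2, 86.9, 56.5, 129 and 58.6 CPM across flox replicates 1 to 5, against 52.8, 59.0, 43.8, 40.2 and 51.4 CPM across HKO replicates. It averaged 80.8 ± 29.5 CPM (SD, n = 5) in flox and 49.4 ± 7.47 in HKO. Its difference did not pass the test (edgeR adjusted p = 0.0858, unadjusted p = 0.00511), and its libraries overlapped. The exact two-sided permutation p of this planned check was 0.0238. Acss2 passed in 4 of 16 alternative fits, with adjusted p from 0.0346 to 0.186. Acss2 overlaps Gss, a gene of the opposite strand with 92.4% of its counts, and with the deleted exons unknown a whole-gene count is a limited check of the genotype.

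The promoters of the synthesis enzymes are shown before the values, because these genes are known as shared targets of SREBP2, NF-Y and Sp1 and their levels are compared below. RefSeq windows (GRCm38.p6, 250 bases before to 50 after each annotated start) were matched for 28 of the 34 genes, 36 windows in all. Npc1, Fdft1, Fdps, Stard4, Soat2 and Sqle were not matched. The windows were searched on both strands for TCACNCCAC, a sterol regulatory element, for CCAAT, the core of NF-Y sites, and for GGGCGG, an Sp1 site. The sterol element was found in 1 of 28 genes, Hmgcs1. It was found in 1.44% of 27025 genes with windows and in 1.5% of the 10222 that were tested. CCAAT was found in 15 of the 16 matched enzymes, in 8 of the 12 other matched genes and in 42.9% of 10222 tested genes with windows. GGGCGG was found in 14 of the 16 enzymes, in 7 of the 12 others and in 66.2% of those tested genes. A match is a description of letters and not a measured site, and none of the 3 motifs is contained in another. Only these spellings were searched, so a window without a match may still hold a site.

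The window of Hmgcs1 is printed for its sterol element. It is the stretch before the start on chromosome 13 of GRCm38.p6, plus strand, chr13:119690101-119690350. Capitals mark the sterol element, whose leftmost base lies 137 bases before the start, and the CCAAT boxes, written ATTGG where they read on the other strand.
Hmgcs1: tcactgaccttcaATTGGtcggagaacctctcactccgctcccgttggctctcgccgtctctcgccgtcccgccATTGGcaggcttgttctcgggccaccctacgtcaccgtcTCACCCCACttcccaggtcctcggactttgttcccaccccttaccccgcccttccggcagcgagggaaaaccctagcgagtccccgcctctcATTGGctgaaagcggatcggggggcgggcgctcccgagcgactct

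For comparison, the 100 bases before the start follow for 6 more enzymes. With Hmgcs1 these are the 7 of 16 matched enzymes in which this stretch overlapped no exon of GENCODE M21. CCAAT or ATTGG is in capitals. Pmvk had windows at 2 annotated starts, and its stretch comes from the one listed first. The other Pmvk window held 0 CCAAT boxes. The stretches are chr5:114444169-114444268 (plus strand) for Mvk, chr3:89454441-89454540 (plus) for Pmvk, chr8:122443423-122443522 (minus) for Mvd, chrX:72918421-72918520 (plus) for Nsdhl, chrX:8193513-8193612 (minus) for Ebp and chr9:42264301-42264400 (minus) for Sc5d.
Mvk: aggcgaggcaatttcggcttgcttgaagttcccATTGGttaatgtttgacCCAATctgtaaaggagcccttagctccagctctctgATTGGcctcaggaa
Pmvk: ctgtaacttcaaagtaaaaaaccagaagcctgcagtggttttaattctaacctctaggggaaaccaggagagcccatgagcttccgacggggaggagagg
Mvd: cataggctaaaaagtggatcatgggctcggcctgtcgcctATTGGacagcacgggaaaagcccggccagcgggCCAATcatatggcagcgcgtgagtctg
Nsdhl: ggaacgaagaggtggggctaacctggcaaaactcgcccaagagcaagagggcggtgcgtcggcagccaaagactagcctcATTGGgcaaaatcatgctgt
Ebp: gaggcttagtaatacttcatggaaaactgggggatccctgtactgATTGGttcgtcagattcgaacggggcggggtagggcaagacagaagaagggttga
Sc5d: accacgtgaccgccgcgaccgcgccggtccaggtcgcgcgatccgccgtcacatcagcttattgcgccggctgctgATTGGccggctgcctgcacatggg
Mvk holds 3 such boxes in this stretch, Mvd holds 2, Hmgcs1, Nsdhl, Ebp and Sc5d hold 1 each and Pmvk holds 0. None of these 7 enzymes passed the edgeR test described next, which called 3.99% of all tested genes, though Mvk passed in DESeq2. Mvk, Pmvk and Nsdhl also passed in edgeR when a certain library was left out. Hmgcs1, Mvk, Pmvk, Mvd and Nsdhl were lower in HKO at an unadjusted edgeR p under 0.05, as were 10.8% of all tested genes. Ebp and Sc5d were not. Acat2, the enzyme that passed in edgeR, is the 1 of 16 matched enzymes whose window held no CCAAT. Npc2, the other gene that fell, held 2 CCAAT boxes in its window. A link between motifs and fold changes was not tested.

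HKO was compared with flox by the quasi-likelihood F-test of edgeR over all 14068 genes, with Benjamini-Hochberg adjustment. Of the 34 genes, 2 fell and 0 rose at an adjusted p under 0.05. The genes that fell were Acat2, at the entry of the pathway, to 63.4% of flox, and Npc2, a sterol carrier of lysosomes, to 64.2%. Over all tested genes the same test called 3.99%, with 3.07% lower and 0.917% higher in HKO, so 2 of 34 is near that background. The groups did not overlap in these 2 genes, HKO being lower, and in 0 genes with HKO higher. Among all tested genes 3.46% did not overlap with HKO lower and 1.91% with HKO higher. At an unadjusted p under 0.05, 11 of the 34 were lower and 1 was higher in HKO, against 10.8% and 6.07% of all tested genes. The number of genes called over the whole table was 561, and it was 361, 335, 289 and 354 without flox replicate 5 and HKO replicates 1, 4 and 5.

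The lower values lay mostly among the synthesis enzymes. Of the 19 enzymes, 17 had a log2 fold change (HKO over flox) below 0, where 49% of all tested genes did. Their median was -0.58, against 0.01 over all tested genes, and 9 of the 19 were lower at an unadjusted p under 0.05. The median was -0.82 for the 8 enzymes that lead to isoprenoid diphosphates and -0.34 for the 11 enzymes from squalene to cholesterol. Of the 15 other genes, 8 were below 0, with a median of -0.01. These medians are descriptions of chosen genes and carry no test. The exceptions among the enzymes were Ggps1 and Hsd17b7, both above 0.

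**Figure D1:**
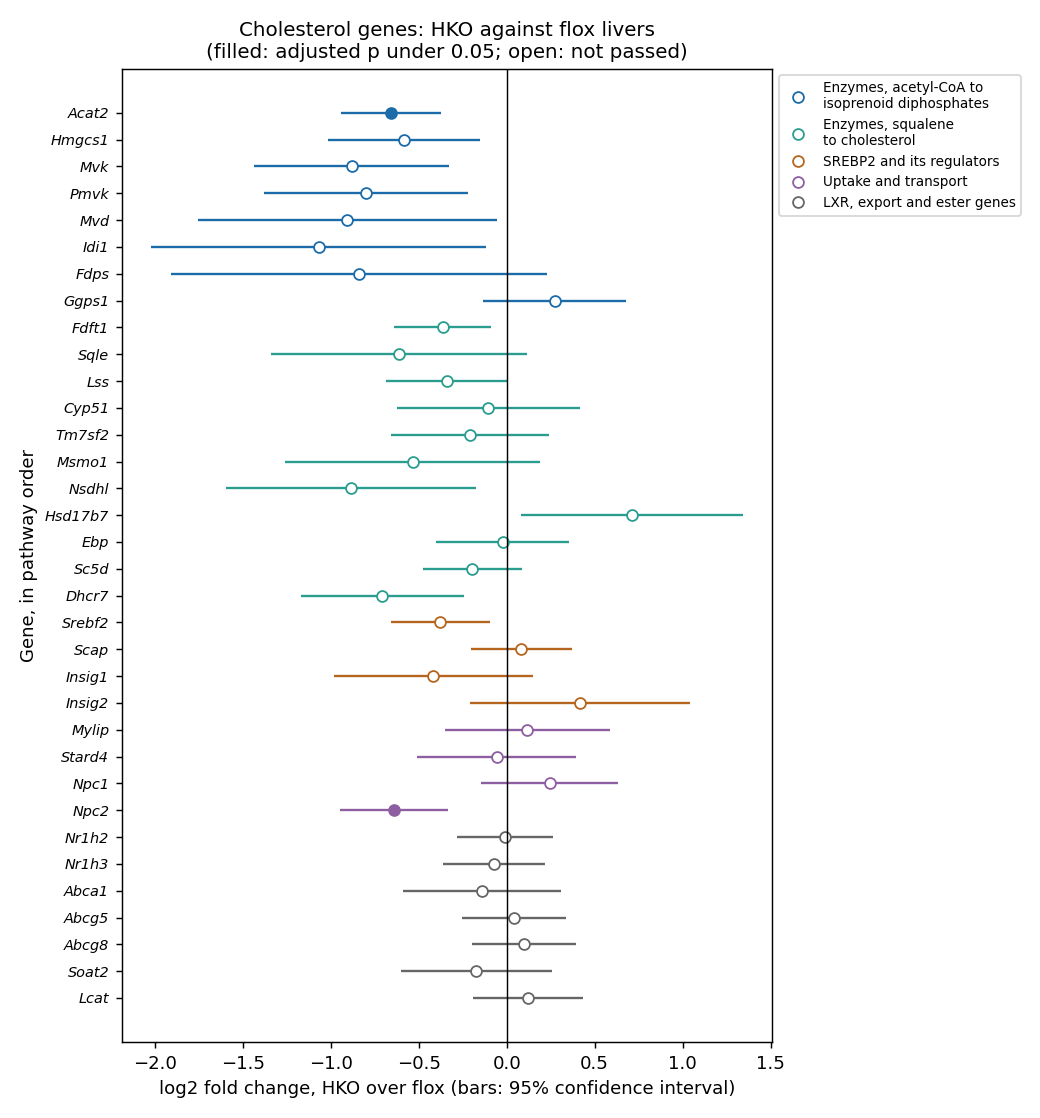
Log2 fold change of HKO over flox on the horizontal axis for each of the 34 genes in pathway order, with the 95% confidence interval of the edgeR fit as a bar and a colour per role. Filled points are Acat2 and Npc2, the genes with an adjusted p under 0.05, most enzyme points lie left of 0, and those of the LXR and export genes lie close to it.

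Acat2 (ENSMUSG00000023832) encodes the cytosolic thiolase that joins acetyl-CoA units to acetoacetyl-CoA. Its level was 54.3, 58.5, 39.3, 48.4 and 41.5 CPM across flox replicates 1 to 5, against 30.4, 31.2, 30.6, 31.4 and 29.6 CPM across HKO replicates. Every HKO library lay below every flox library, and the HKO values were close together, with a coefficient of variation of 2.35% against 16.9% in flox. The HKO libraries held 2453 counts of the gene in all. Sampling of reads alone spreads counts of this size, so the narrow HKO range is no measure of tightly held expression. The difference in log2 was -0.66 ± 0.13 (SE). It passed in edgeR (adjusted p = 0.0156). The exact two-sided permutation p was 0.00794, the smallest that 252 assignments can give. Groups that do not overlap always give this value, so it adds nothing to the lack of overlap. The call held in 16 of 16 alternative fits, with adjusted p from 0.000423 to 0.0433. The gene lies on chromosome 17 from 13161777 to 13179634, minus strand, in the deposited table's coordinates, whose build is uncertain. In part of its transcript Acat2 is nearly identical to Acat3, which had 370% as many counts, so reads may have been split between the pair by the counting. Acat3 had a log2 fold change of -0.52 ± 0.20 and did not pass (edgeR adjusted p = 0.191).

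Hmgcs1 encodes the cytosolic HMG-CoA synthase, the next step. Its level was 162, 114, 173, 109 and 142 CPM across flox replicates 1 to 5, against 64.6, 106, 106, 68.9 and 121 CPM across HKO replicates. HKO replicates 1 and 4 were the lowest, and HKO replicate 5 lay within the flox range. The difference did not pass the test (log2 fold change -0.58 ± 0.20, edgeR adjusted p = 0.136). No alternative fit called it, the lowest adjusted p being 0.0757.

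The kinases that phosphorylate mevalonate and phosphomevalonate are encoded by Mvk and Pmvk. Mvk stood at 6.12, 7.67, 6.99, 12.2 and 8.76 CPM across flox replicates 1 to 5, against 3.56, 7.37, 3.83, 3.47 and 4.41 CPM across HKO replicates. HKO replicate 2 alone reached into the flox range, and without it the gene passed (edgeR adjusted p = 0.0309) where over all 10 libraries it did not (adjusted p = 0.0781). Mvk also passed in DESeq2 (adjusted p = 0.0218). Pmvk stood at 5.45, 13.7, 6.55, 16.2 and 10.3 CPM across the flox replicates, against 6.61, 5.74, 6.21, 5.33 and 6.06 CPM across HKO replicates. Its HKO libraries were close together, on 480 counts in all, so the limit given for Acat2 holds here too. Flox replicates 1 and 3 were as low as the HKO libraries. Pmvk did not pass (edgeR adjusted p = 0.130), but did without flox replicate 1 (adjusted p = 0.0440).

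Mvd and Idi1 make and isomerise the isoprene unit, isopentenyl diphosphate. Mvd had 6.98, 3.29, 5.90, 9.74 and 7.66 CPM across flox replicates 1 to 5, against 2.01, 4.35, 6.48, 1.16 and 3.91 CPM across HKO replicates. The groups overlapped, as HKO replicates 2, 3 and 5 exceeded flox replicate 2 and HKO replicate 3 also exceeded flox replicate 3. Idi1 had 29.9, 8.04, 7.92, 22.8 and 17.0 CPM across the flox replicates, against 4.08, 8.95, 5.35, 17.7 and 4.80 CPM across HKO replicates. Its fitted decrease was the largest of the 34 genes, a log2 fold change of -1.07 ± 0.44, but flox replicates 2 and 3 were low and HKO replicate 4 was high. Neither gene passed (edgeR adjusted p = 0.259 for Mvd and 0.228 for Idi1), and no alternative fit called either.

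Farnesyl diphosphate synthase, the gene Fdps, ran from 1.10 to 5.13 CPM in flox and from 0.578 to 2.97 CPM in HKO. It rests on 261 and 130 counts in the groups, and its log2 fold change of -0.84 ± 0.50 did not pass (edgeR adjusted p = 0.433). The annotation holds 5 near-identical copies (4 processed pseudogenes and the predicted gene Gm43738) covering 74.3 to 81.6% of its transcript, and the pseudogene Gm3571 had 134% as many counts. Reads listed under Gm3571 fell, by a log2 difference of -1.17 ± 0.28 (edgeR adjusted p = 0.0326), so the level of Fdps is uncertain. Ggps1, which makes the geranylgeranyl diphosphate used to anchor proteins in membranes, ran from 7.80 to 12.8 CPM in flox and from 10.3 to 17.2 CPM in HKO. Its 95% confidence interval, from -0.13 to 0.68 in log2, included 0. Ggps1 overlaps Arid4b on the opposite strand, a gene with 270% of its counts.

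**Figure D2:**
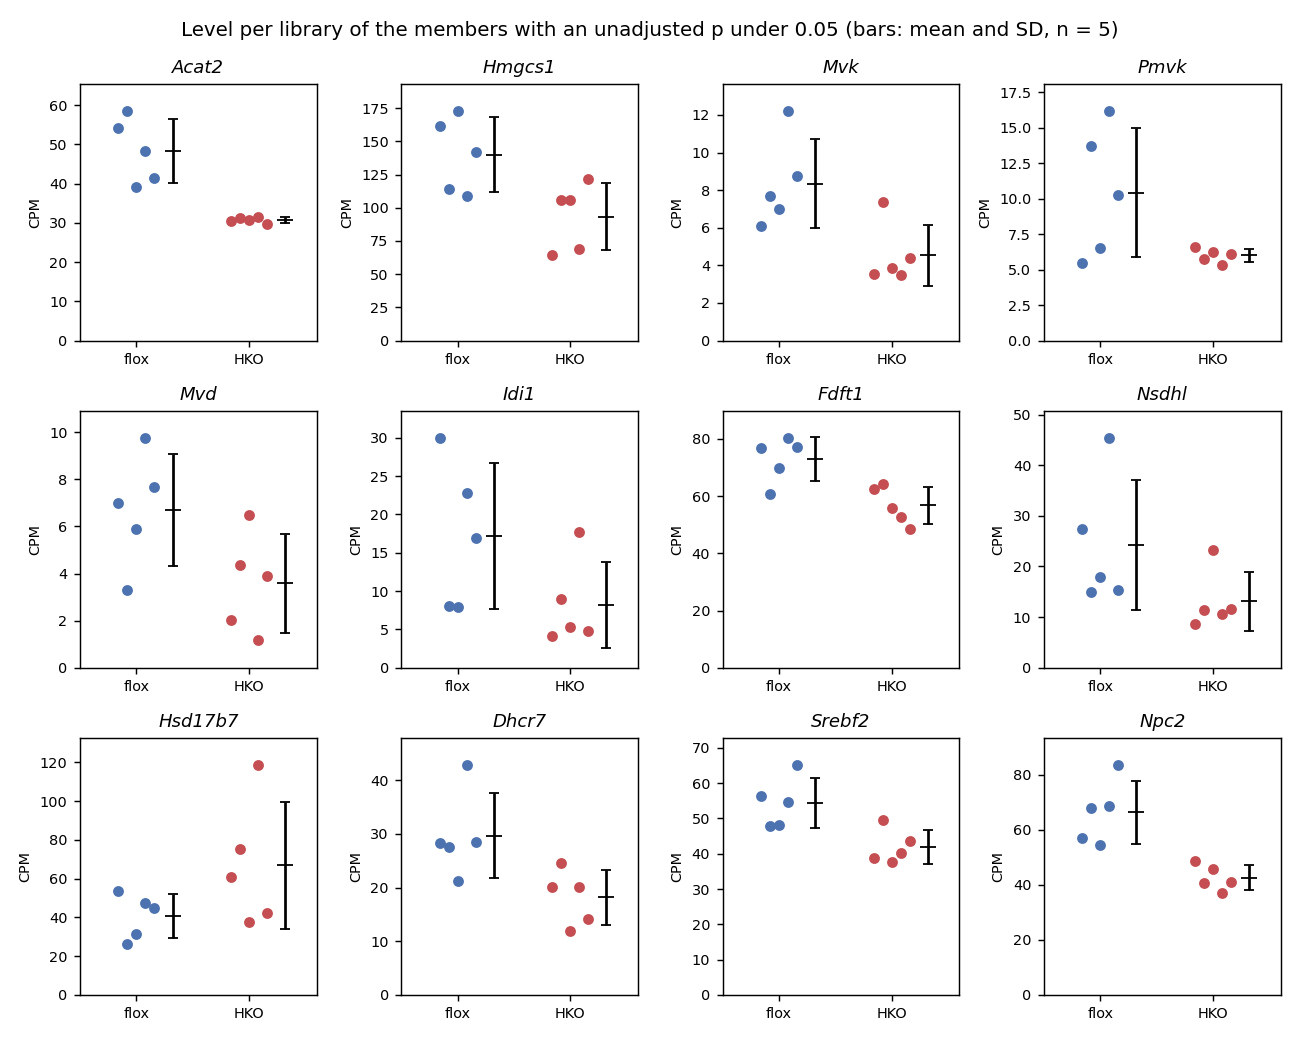
Level in CPM (vertical axes, each starting at 0) of the 12 genes with an unadjusted p under 0.05, in 5 flox and 5 HKO libraries drawn left to right as replicates 1 to 5, with the mean and SD beside each group. The groups are apart in Acat2 and Npc2 and overlap in the other 10 genes, and Hsd17b7 is the gene with higher HKO values.

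Fdft1 encodes squalene synthase, the step that commits isoprenoids to sterols. Its level was 76.8, 60.7, 70.0, 80.2 and 77.1 CPM across flox replicates 1 to 5, against 62.5, 64.2, 55.9, 52.8 and 48.4 CPM across HKO replicates. Flox replicate 2 lay within the HKO range, and the log2 fold change of -0.36 ± 0.13 did not pass (edgeR adjusted p = 0.150). Fdft1 overlaps Ctsb, the gene of the lysosomal protease cathepsin B, on the other strand. Ctsb had 860% as many counts and fell (log2 fold change -0.66 ± 0.15, edgeR adjusted p = 0.0231), and its part in the Fdft1 value was not tested.

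In the middle of the sterol route, Sqle and Cyp51 varied more between libraries of a group than Lss, whose coefficient of variation was 18.1% in both groups. Sqle, squalene epoxidase, ran from 7.43 to 39.3 CPM in flox and from 10.1 to 23.3 CPM in HKO. Lss, which closes the ring to lanosterol, ran from 18.5 to 31.3 and from 16.3 to 25.8 CPM. Cyp51, the lanosterol demethylase, ran from 30.6 to 79.0 and from 38.2 to 69.8 CPM, and it overlaps Akap9, with 91.2% as many counts. The log2 fold changes were -0.61, -0.34 and -0.10 in this order, and none of the 3 passed (edgeR adjusted p = 0.393, 0.315 and 0.884).

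Tm7sf2, a sterol reductase, ran from 38.4 to 93.7 CPM in flox, where replicate 5 was the low library, and from 56.5 to 77.9 CPM in HKO. It overlaps Vps51 on the same strand, which had 20.3% as many counts. Msmo1, the methylsterol oxidase, ran from 33.5 to 111 CPM in flox and from 28.6 to 88.0 CPM in HKO. Neither passed (edgeR adjusted p = 0.678 and 0.468).

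Nsdhl and Hsd17b7 work on the same part of the route, the removal of methyl groups from the sterol ring, and had opposite fold changes. Nsdhl, a sterol dehydrogenase, stood at 27.5, 14.9, 17.9, 45.3 and 15.3 CPM across flox replicates 1 to 5, against 8.69, 11.4, 23.2, 10.6 and 11.6 CPM across HKO replicates. All HKO libraries but replicate 3 were below all flox libraries, and without HKO replicate 3 the gene passed (edgeR adjusted p = 0.0463, against 0.173 with all libraries). Hsd17b7, a ketosteroid reductase, stood at 53.7, 26.2, 31.5, 47.4 and 44.9 CPM across the flox replicates, against 60.7, 75.4, 37.5, 118 and 42.1 CPM across HKO replicates. HKO replicates 1, 2 and 4 exceeded every flox library, while HKO replicates 3 and 5 lay among them. The log2 fold changes were -0.88 ± 0.33 for Nsdhl and 0.71 ± 0.29 for Hsd17b7. Hsd17b7 did not pass (edgeR adjusted p = 0.223), and its log2 fold change ran from 0.41 to 0.87 when each library was left out.

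The last steps are those of Dhcr7, Ebp and Sc5d, none of which passed. Dhcr7, the reductase that yields cholesterol, had 28.3, 27.5, 21.2, 42.7 and 28.5 CPM across flox replicates 1 to 5, against 20.1, 24.5, 11.9, 20.1 and 14.2 CPM across HKO replicates. Only HKO replicate 2 exceeded the lowest flox library. The log2 fold change of -0.71 ± 0.22 did not pass (edgeR adjusted p = 0.0893), but did in DESeq2 (adjusted p = 0.0446). Ebp, a sterol isomerase, had group means of 153 ± 34.9 and 150 ± 22.3 CPM (SD, n = 5), with a 95% confidence interval of -0.40 to 0.35 for its log2 fold change. Sc5d, a sterol desaturase, ran from 239 to 305 CPM in flox and from 220 to 268 CPM in HKO, with an interval of -0.48 to 0.08.

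Per kilobase of the gene length in the deposited table, the levels along the route were uneven. Ebp and Sc5d were the highest enzymes in flox, at 66.1 and 56.9 CPM per kb, and Hmgcs1 followed at 30.5. Mvk, Mvd, Idi1, Sqle, Lss and Ggps1 were between 2.35 and 4.89 CPM per kb, and Fdps was listed at 0.699. The 4 enzymes with the lowest HKO levels relative to flox were Idi1 (47.7%), Mvd (53.4%), Nsdhl (54.2%) and Mvk (54.3%). These had 8.47 CPM per kb or less in flox. So did Ggps1 (2.37), Hsd17b7 (7.99) and Lss (2.35), which stood at 121%, 164% and 79.1% of flox. Among the highest enzymes, Ebp and Sc5d stood at 98.4% and 87.3% of flox and Hmgcs1 at 66.7%. Lcat, a plasma enzyme made by the liver, was the highest of all 34 genes per length, at 337 CPM per kb in flox and 367 in HKO. Mvd and Mvk, neighbours in this order in flox, differed by less than the spread of either across libraries, whereas Lcat lay far above the next gene, Insig2, at 73.3 CPM per kb in flox.

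**Figure D3:**
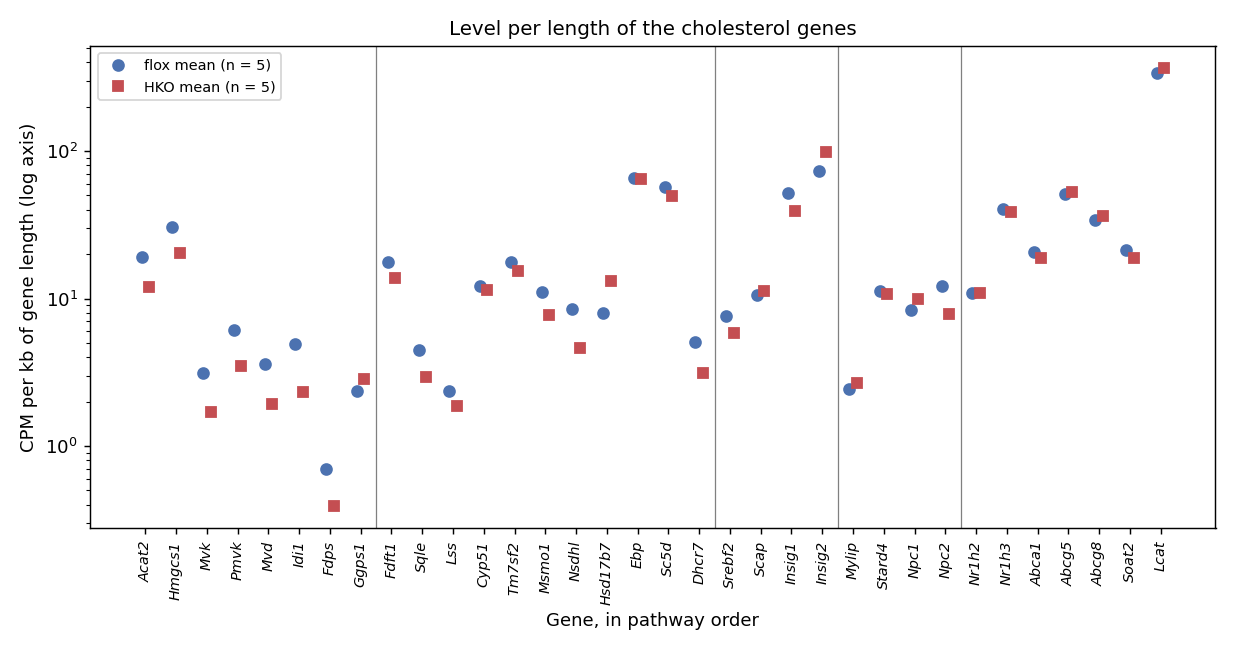
Mean level per kilobase of gene length (CPM per kb, log axis) of each gene in pathway order, with circles for flox and squares for HKO (means of 5 libraries), and grey lines between the roles. Fdps is listed lowest, at 0.699 in flox, a level left uncertain by its near-identical copies, and Lcat is highest at 337. The squares lie below the circles for 17 of 19 enzymes and for 4 of the 7 LXR, export and ester genes.

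Srebf2, which encodes SREBP2, had 56.4, 48.0, 48.2, 54.6 and 65.0 CPM across flox replicates 1 to 5, against 38.8, 49.5, 37.5, 40.1 and 43.7 CPM across HKO replicates. HKO replicate 2 was the library within the flox range. The log2 fold change of -0.38 ± 0.13 did not pass (edgeR adjusted p = 0.142). Scap, which carries SREBP to the Golgi, had 78.8 ± 12.3 CPM in flox and 83.4 ± 6.72 in HKO (SD, n = 5), an interval of -0.20 to 0.37 in log2.

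The genes of the INSIG pair, which hold the SCAP-SREBP complex in the endoplasmic reticulum, had fold changes of equal size and opposite sign. Insig1, itself a target of SREBP, ran from 108 to 191 CPM in flox and from 70.7 to 183 CPM in HKO, with a log2 fold change of -0.42 ± 0.26. HKO replicates 1 and 4 were the low libraries of Insig1, at 70.7 and 76.3 CPM, as they were of Hmgcs1. Insig2, which has a liver transcript known to be lowered by insulin, ran from 131 to 385 CPM in flox and from 245 to 491 CPM in HKO, with a log2 fold change of 0.42 ± 0.29. HKO replicates 4 and 5 were above every flox library, at 491 and 435 CPM, and flox replicate 4 was the lowest, at 131 CPM. Neither passed (edgeR adjusted p = 0.470 and 0.520). Of 12 genes for the proteases, ligases and adaptors that cut SREBP or degrade sterol-regulated proteins, 0 passed in edgeR and 0 had an unadjusted p under 0.05, with a median log2 fold change of 0.01. Among them, the abundant Pgrmc1 had a log2 fold change of -0.15 ± 0.17.

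Npc2 (ENSMUSG00000021242) encodes the soluble protein that hands cholesterol to NPC1 in the lysosome. Its level was 57.0, 68.0, 54.6, 68.6 and 83.4 CPM across flox replicates 1 to 5, against 48.6, 40.6, 45.9, 37.0 and 41.0 CPM across HKO replicates. Every HKO library was below every flox library. The difference in log2 was -0.64 ± 0.14. It passed in edgeR (adjusted p = 0.0235), with an exact permutation p of 0.00794 that repeats the lack of overlap. The call was lost without flox replicate 5 and without HKO replicates 2, 4 or 5 (edgeR adjusted p = 0.0586, 0.0567, 0.0626 and 0.0606), with a log2 fold change of -0.54 or lower in each. The gene lies on chromosome 12 from 84801336 to 84819926, minus strand, in the table's coordinates. Macrophages also express Npc2, and 14 of 14 macrophage markers fell, with a median log2 fold change of -1.69. Their part in the Npc2 value was not tested.

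Npc1, the membrane partner of NPC2, had 95.1 ± 24.6 CPM in flox and 113 ± 17.2 in HKO (SD, n = 5), with an interval of -0.14 to 0.63 in log2, and it overlaps Rmc1, with 24.9% as many counts. Stard4, a cytosolic sterol carrier, ran from 37.9 to 85.5 CPM in flox and from 44.7 to 72.1 CPM in HKO. Mylip, the LXR-induced ligase that marks lipoprotein receptors for degradation, ran from 4.99 to 10.3 and from 6.68 to 11.4 CPM. None of these 3 passed (edgeR adjusted p = 0.548, 0.933 and 0.851). In 17 further genes of sterol transfer, esters and lipoprotein receptors, 0 passed in edgeR. Of these 3 were lower and 1 was higher at an unadjusted p under 0.05, against 10.8% and 6.07% of all tested genes. The median log2 fold change of the 17 was -0.08. The most abundant, Scp2, a sterol carrier, and Lrp1, a remnant receptor, had 0.25 ± 0.17 and -0.06 ± 0.15.

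The 7 genes of LXR, export and sterol esters did not differ beyond the spread of their libraries. In edgeR 0 passed, 0 had an unadjusted p under 0.05, DESeq2 called 0, and the log2 fold changes ran from -0.17 to 0.12 with a median of -0.01. Nr1h3 and Nr1h2, which encode the alpha and beta forms of LXR, had means of 102 and 97.5 CPM and of 36.8 and 36.6 CPM in flox and HKO. Their 95% confidence intervals in log2 were -0.36 to 0.22 and -0.28 to 0.26.

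Abcg5 and Abcg8, whose products pair to pump sterols into bile, had 139 ± 11.1 and 128 ± 17.7 CPM in flox and 143 ± 24.3 and 137 ± 16.1 CPM in HKO (SD, n = 5). Their log2 fold changes of 0.04 and 0.10 turned slightly negative when library totals alone were used for scaling, and the genes overlap each other on opposite strands. Abca1, which loads cholesterol onto apolipoprotein A-I, ran from 180 to 291 CPM in flox and from 134 to 292 CPM in HKO. Its highest flox library was replicate 1 and its highest HKO library replicate 4.

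Soat2, which esterifies cholesterol for storage and secretion, ran from 26.5 to 61.3 CPM in flox and from 31.7 to 50.2 CPM in HKO. Lcat, which esterifies cholesterol on circulating particles, ran from 377 to 537 and from 436 to 570 CPM. The intervals of their log2 fold changes were -0.60 to 0.26 and -0.19 to 0.44. For these 7 genes the intervals leave room for changes of up to 0.60 on the log2 scale, so equal levels are not shown.

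Of 8 other known LXR targets, 2 fell, against 3.07% of all tested genes. At an unadjusted edgeR p under 0.05, 5 were lower, against 10.8% of all tested genes. The median log2 fold change of the 8 was -1.01, and 2 of them were above 0. Abcg1, a sterol exporter with a large role in macrophages, had 8.02, 6.27, 6.22, 6.99 and 11.9 CPM across flox replicates 1 to 5, against 1.94, 4.03, 5.29, 3.60 and 2.20 CPM across HKO replicates. Arl4c, a small GTPase, had 2.51, 2.50, 2.07, 3.04 and 6.04 CPM across the flox replicates, against 0.778, 1.70, 1.06, 1.16 and 0.606 CPM across HKO replicates. The groups did not overlap in either gene, and flox replicate 5 was the highest library of both. The edgeR adjusted p was 0.0325 for Abcg1 and 0.0257 for Arl4c. They passed in 9 and 11 of 16 alternative fits, and without flox replicate 5 it was 0.0881 and 0.0624. The summed macrophage markers were also highest in flox replicate 5, at 850 CPM, and their part in these values was not tested.

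In the side branches that use isoprenoids, 1 of 12 genes rose and 0 fell, with a median log2 fold change of -0.06. Over all tested genes 0.917% rose and 3.07% fell. Rabggtb, a subunit of the transferase that attaches geranylgeranyl groups to Rab proteins, had 36.1, 34.7, 45.3, 41.5 and 33.7 CPM across flox replicates 1 to 5, against 57.9, 51.1, 49.8, 57.6 and 55.2 CPM across HKO replicates. Every HKO library was above every flox library. The edgeR adjusted p was 0.0355, but it was above 0.05 in 10 of 16 alternative fits, up to 0.113.

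The enzyme levels also varied between libraries of the same group. Flox replicate 4 held the highest level of 11 of the 19 enzymes, and it and flox replicate 1 were each above the 10-library mean in 17 of them. HKO replicate 1 was above it in 2 and HKO replicate 5 in 4. The mean centred log2 CPM of the 19 enzymes was 0.37, -0.17, 0.13, 0.65 and 0.13 in flox replicates 1 to 5, and -0.43, 0.03, -0.13, -0.23 and -0.34 in HKO. Flox replicate 2 was thus below 2 of the HKO libraries, and it was the lowest library of 4 enzymes, Sqle among them. For the 8 early enzymes the same measure was -0.03 or more in flox and -0.06 or less in HKO, and for the 11 later enzymes the groups overlapped. The summed macrophage markers were 801 CPM in flox replicate 4 and 850 CPM in flox replicate 5, and their part in the enzyme values was not tested. The enzymes varied more within groups than the 15 other genes, with a median coefficient of variation of 28.3% against 17.3% in flox and 27.0% against 15.3% in HKO.

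**Figure D4:**
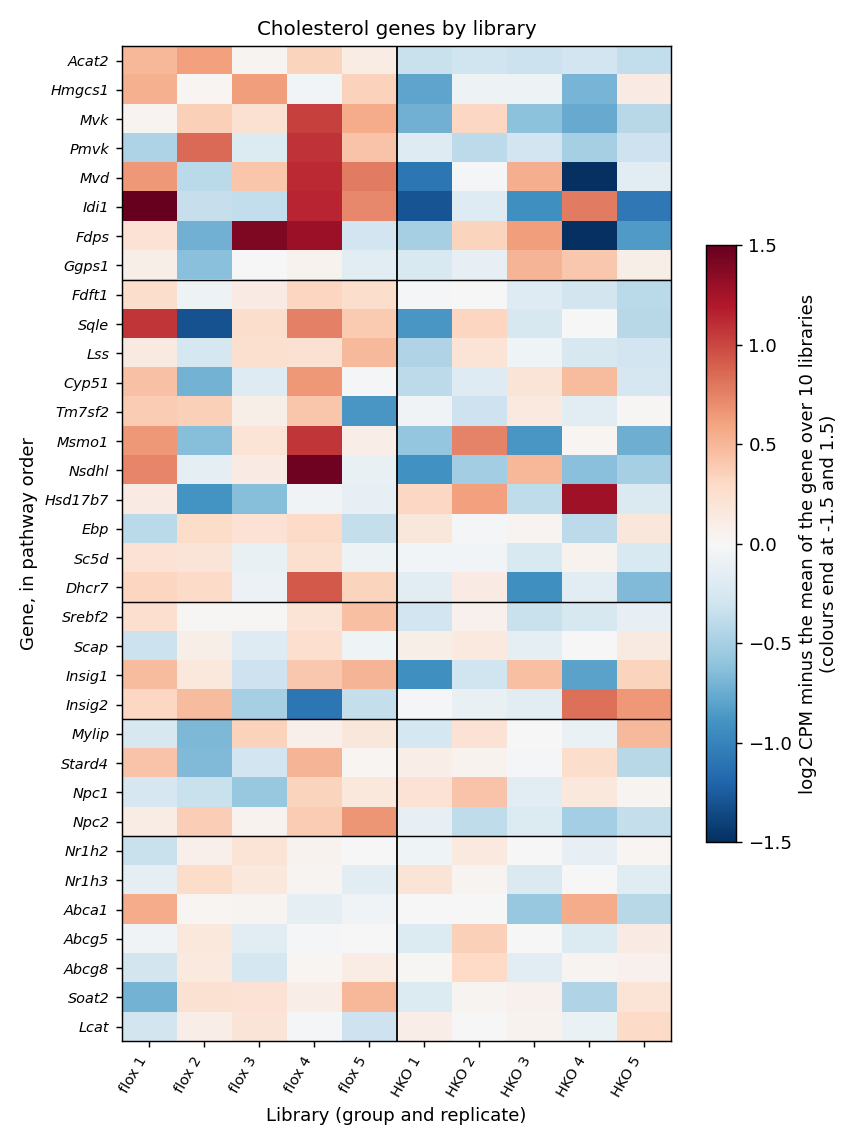
Log2 CPM of each of the 34 genes (rows, in pathway order) in each of 10 libraries (columns), after subtracting the gene's mean over the libraries, with red above and blue below that mean. The enzyme rows are mostly red in flox replicates 1 and 4 and mostly blue in HKO replicates 1 and 5, flox replicate 2 is blue for 11 of the 19 enzymes, and the rows of the export genes are pale.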

How the data were processed

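RNA-seq libraries of 10 mouse livers (5 flox, 5 HKO) were made, per the labels' protocols, with the VAHTS Universal V6 kit. The authors deposited raw read counts per gene. Build mm10 and DESeq2 appear in the submitters' processing notes. Aligner, counting program, strand use and annotation: not given in the sources used here. Gene lengths are listed in the deposited table. Of the 34 genes, 1 had the same start and end in GENCODE M21 (GRCm38), so the table's build is uncertain.

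Counts were fitted with edgeR 4.0.16 in R 4.3.3 (TMM, filterByExpr, quasi-likelihood F-test, two-sided). The p-values were Benjamini-Hochberg adjusted over all tested genes, with a threshold of 0.05. The SE was derived from the F statistic (size of the log2 fold change divided by root F), and 95% confidence intervals use it. A prior count of 2 entered log2 CPM. Single genes were also compared by exact two-sided permutation. DESeq2 1.42.0 and other settings were alternatives. Transcripts were aligned with BLAST 2.17.0 (identity of at least 95% over at least 50% of the transcript), and 2 of the 34 genes had such a copy. Genes overlapping a neighbour that had 10 percent or more of their counts numbered 8. The test was tested on simulated data. Each pair of libraries of a group differed by more than sampling noise, with a chi-square per degree of freedom of at least 24.6.

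The genes, lists and settings were chosen with earlier results of these data known. The genes named were all 34, Acss2 and, from each related list, up to 3 that passed or otherwise the 2 most abundant, of which 1 is not reported here. Genes that overlap or resemble a named gene were added after their values were seen, as was the choice of the 100-base promoter stretches. The 34 genes' values per library are given where the unadjusted p was under 0.05.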

Additional observations from a re-analysis of the deposited data

Results flagged for a closer look

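In 3 of 70 sets of 5 libraries checked, a library lay far from the other 4, a number that chance alone gives in about 5% of sets. Mvk in HKO replicate 2 was at 7.37 CPM, where the other HKO libraries ran from 3.47 to 4.41. Nsdhl in HKO replicate 3 was at 23.2 CPM, where the others ran from 8.69 to 11.6. Abca1 in flox replicate 1 was at 291 CPM, where the others ran from 180 to 203. The Mvk and Nsdhl libraries are those whose omission brought an adjusted p under 0.05.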

How the results depend on the processing

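Over 16 alternatives, Acat2 kept its call in each and the median of the 19 enzymes ran from -0.66 to -0.46 with 1 library left out. The genes called over the whole table numbered 1021 in DESeq2, and from 289 to 673 with 1 library left out. The called cholesterol genes numbered 4 in DESeq2 (Acat2, Mvk, Dhcr7 and Npc2), and from 1 to 3 with 1 library left out. Acss2 passed in DESeq2 (log2 fold change -0.70), with library totals alone (-0.80), without a filter on low counts (-0.70) and without flox replicate 3, and ran from -0.81 to -0.47 with 1 library left out. Library totals alone shifted the median of all genes by -0.108 (log2). The median of the export genes became -0.12 with them, and 4 cholesterol genes turned negative, Scap (-0.024), Mylip (-0.0087), Abcg5 (-0.057) and Abcg8 (-0.011). The sign of Nr1h2, near 0, also changed without a filter (0.0025). With 1 library left out, signs changed within these ranges: Cyp51 -0.25 to 0.080, Ebp -0.11 to 0.064, Stard4 -0.19 to 0.085, Mylip -0.010 to 0.23, Nr1h2 -0.084 to 0.043, Abca1 -0.33 to 0.00037, Abcg5 -0.052 to 0.096 and Lrp1 -0.15 to 0.0062. The cause of these moves was not tested. With the replicate number as a block, 448 genes were called, Acat2 and Dhcr7 (adjusted p = 0.0426) passed, and Npc2 (0.0668), Abcg1, Arl4c and Rabggtb did not. Whether the numbers pair the libraries is not known. Correlations of same-numbered libraries, after the group means were removed, ran from -0.12 to 0.24, which cannot exclude a pairing. Genes at a few CPM, such as Fdps, rest on few counts, and the level of Fdps is also uncertain because of its near-identical copies.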
